A study of Rattus norvegicus with 12 samples.

Results

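The 2 mature miRNAs described here are rno-miR-31 and rno-miR-27b*, the star strand of the miR-27b hairpin, in Kupffer cells of rats fed ethanol or a pair-fed control diet. They were selected on these data: the deposited table of the basal comparison holds 30 miRNAs that the authors had kept because their values were at least 2-fold lower after ethanol feeding, and both members were then picked from that table for their link to inflammation. That both are lower with ethanol is therefore the condition of their selection. Their values are given as a description of the libraries, with no test.

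Kupffer cells, the macrophages that line the sinusoids of the liver, were isolated from adult male Wistar rats and kept in primary culture. Rats of the ethanol-fed group had free access to a liquid Lieber-DeCarli diet with ethanol for 4 weeks, and pair-fed rats received the control diet in matched amounts. The 6 libraries that carry values for both members are basal, from cells not treated with HA35, a short fragment of hyaluronic acid, with 3 libraries from pair-fed and 3 from ethanol-fed rats. The series holds 12 libraries, and the other 6 came from cells given HA35 for 5 h after 18 h of culture. Libraries of a group are numbered by day, here replicates 1 to 3, and it is not stated in the labels if 1 rat or several gave the cells of a day. The spread between libraries may therefore be partly technical. Each library was made from a whole culture, so that fewer cells of a type and less of a miRNA per cell cannot be told apart.

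A miRNA hairpin is cut by Dicer into a duplex, and 1 strand is loaded into an Argonaute protein to repress transcripts that pair with its seed. The strand found less often was named the star strand in older nomenclature. The study names miR-31 as a regulator of Tollip, citing earlier work in which its binding inhibits translation. Tollip is an adaptor protein that restrains signaling by Toll-like receptors through the IRAK kinases. Macrophages use these receptors to sense bacterial products such as LPS. The study also measured less Tollip protein after ethanol feeding, and attributed it to raised miR291b. A part of miR-31 in that was not tested. The miR-27b hairpin is best known for its other arm, which is known to repress PPARγ, a nuclear receptor with anti-inflammatory roles in macrophages. Much less is known of the star strand.

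The mature sequences show what each entry of the table stands for. They are given 5′ to 3′ from RefSeq (build GRCr8), with the seed, bases 2 to 8, in capitals. The table uses the older names, and by the order of the arms in its identifiers rno-miR-31 is the arm RefSeq calls miR-31a-5p and rno-miR-27b* the arm it calls miR-27b-5p. That order matched the genome for the 6 miRNAs of the table whose names state an arm.
rno-miR-31: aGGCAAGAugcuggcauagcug
rno-miR-27b*: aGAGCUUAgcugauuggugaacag
The first lies on chromosome 5 at chr5:108714906-108714927 on the minus strand and has 22 bases. The second lies on chromosome 17 at chr17:1819202-1819225, also on the minus strand, and has 24 bases. Aligned from base 1, they share 4 of 22 bases, and each seed occurs in 1 of the 693 mature rat miRNAs of the RefSeq table, which is the member itself. By sequence, then, the members belong to no common seed family.

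The opposite arm and the closest paralog are shown because the star strand differs from both. The 3p arms of miR-27b and miR-27a carry the same seed and differ at 1 of 21 bases. Compared base by base from base 1 without gaps, their 5p arms differ at 8 of 22 bases, with 1 of these differences inside the seed. A gap in the later bases of the 5p arms would lower that count.
miR-27b-3p: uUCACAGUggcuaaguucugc
miR-27a-3p: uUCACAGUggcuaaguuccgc
miR-27a-5p: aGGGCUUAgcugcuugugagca
Neither arm of miR-27a and no other arm of miR-27b is in the basal table, so the value of the star strand cannot be set beside that of its guide strand. The hairpin of miR-27b, 97 bases at chr17:1819147-1819243, is printed with the star strand, bases 19 to 42, in capitals.
Mir27b: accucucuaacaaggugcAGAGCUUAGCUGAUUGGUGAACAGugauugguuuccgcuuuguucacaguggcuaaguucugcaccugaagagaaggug
It lies within Aopep, an aminopeptidase gene, with the hairpins of miR-23b and miR-24-1 at 142 and 410 bases.

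The hairpin of miR-31, 106 bases at chr5:108714849-108714954, is printed with the measured arm, bases 28 to 49, in capitals, because a second miRNA gene is annotated on the other strand at the same place.
Mir31: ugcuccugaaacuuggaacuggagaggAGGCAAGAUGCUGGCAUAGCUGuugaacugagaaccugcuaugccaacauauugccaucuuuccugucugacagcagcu
miR-31b: cUAUGCCAgcaucuugccu
All 19 bases of miR-31b are the reverse complement of part of miR-31a-5p, and whether reads were counted by strand is not stated in the labels or methods. Without strand, reads of miR-31 and miR-31b could not be told apart. The nearest protein-coding gene is Ifne, which encodes interferon epsilon, 26745 bases away, and the hairpin lies within a long noncoding RNA gene, LOC130062807.

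The basal libraries held between 2865329 and 6151744 reads, of which 45.5% to 61.9% were aligned. Values in the table are normalized log2 values from which the median of each miRNA over the 6 libraries was subtracted, so that a value of 0 is the middle of the 6 libraries and a step of 1 is a doubling. Such values compare libraries for the same miRNA and give no level of one miRNA against another. Read numbers are given per library and not per miRNA, so the depth behind a single value is unknown.

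miR-31 had normalized log2 values of 1.81, -0.43 and 1.05 in pair-fed replicates 1, 2 and 3. In ethanol-fed replicates 1, 2 and 3 it had values of -0.77, -0.21 and 0.21. The groups overlapped: pair-fed replicates 1 and 3 were the highest of the 6 libraries, but pair-fed replicate 2 was below ethanol-fed replicates 2 and 3, and only ethanol-fed replicate 1 was lower still. Of the 9 pairs of a pair-fed and an ethanol-fed library, 7 had the lower value in the ethanol-fed library. The pair-fed mean was 0.81 ± 1.14 (SD, n = 3), the ethanol-fed mean was -0.26 ± 0.49 (SD, n = 3), and the difference was -1.07 (SE 0.72), or 2.10-fold lower with ethanol. By day, the ethanol-fed minus the pair-fed value was -2.58 on day 1, 0.22 on day 2 and -0.84 on day 3. The value was thus lower with ethanol on 2 of 3 days, and day 1 carried most of the mean difference.

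miR-27b* had values of 1.83, 0.02 and 0.86 in pair-fed replicates 1, 2 and 3. Its values in ethanol-fed replicates 1, 2 and 3 were -0.79, -0.02 and -0.55. Here every pair-fed library was above every ethanol-fed library, in all 9 pairs, but by a narrow margin, since pair-fed replicate 2 was only 0.039 above ethanol-fed replicate 2, against a pooled SD of 0.70 within groups. The pair-fed mean of 0.90 ± 0.90 (SD, n = 3) and the ethanol-fed mean of -0.45 ± 0.39 (SD, n = 3) gave a difference of -1.36 (SE 0.57), or 2.56-fold lower. By day, the difference was -2.61 on day 1, -0.04 on day 2 and -1.42 on day 3. The value was lower with ethanol on all 3 days, with almost no difference on day 2. For both miRNAs the pair-fed libraries were spread more widely than the ethanol-fed ones, and the highest and the lowest value both came from day 1.

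**Figure D1:**
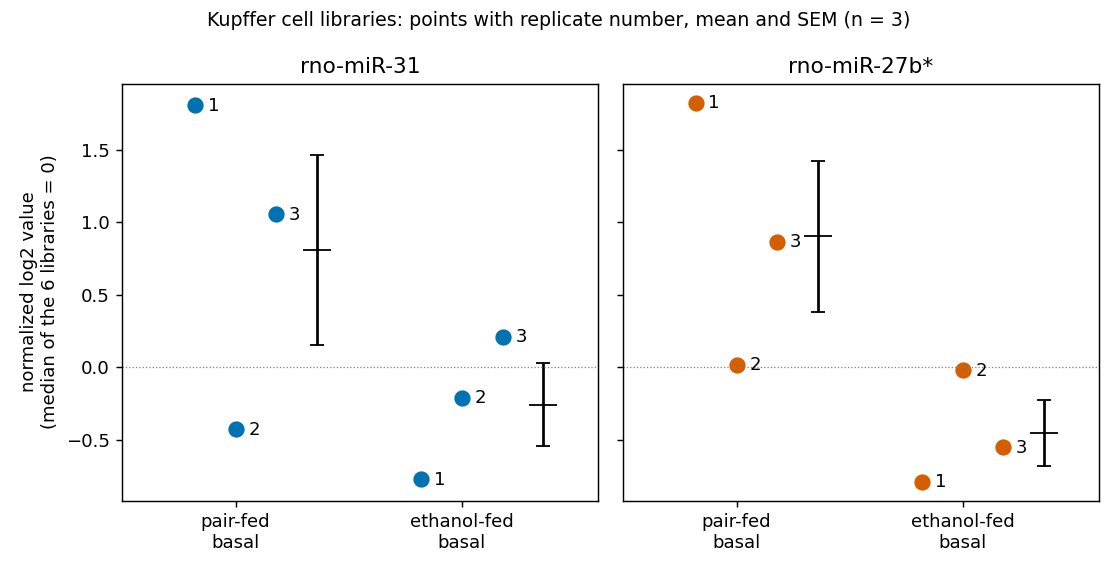
Normalized log2 values (median of the 6 libraries set to 0) of miR-31, left, and miR-27b*, right, in 3 pair-fed and 3 ethanol-fed basal libraries, as points with the replicate number beside the mean and SEM. Pair-fed replicate 2 lies below ethanol-fed replicates 2 and 3 for miR-31 (-0.43 against -0.21 and 0.21), whereas for miR-27b* the groups part by 0.039.

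The pair differed most in 2 libraries. Pair-fed replicate 2 was the second lowest of the 6 libraries for miR-31, at -0.43, and in the middle for miR-27b*, at 0.02. Ethanol-fed replicate 3 was the highest ethanol-fed library for miR-31, at 0.21, and the middle one for miR-27b*, at -0.55. These gaps of 0.45 and 0.76 compare with 0.020 and 0.017 in pair-fed and ethanol-fed replicate 1 and 0.19 in the other 2 libraries.

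Within the selected table neither member stood at the far end. The 30 differences ran from -2.30 for miR-152* to -1.02 for miR-541, which lay just inside the 2-fold limit of the list (-1 on the log2 scale), with a median of -1.30. miR-27b* ranked 13th of 30 by size of the difference, close to that median, and miR-31 ranked 24th, close to the limit. For 7 of the 30, miR-152* and miR-541 among them but neither member, 2 or more libraries were tied at the lowest value. Whether these ties reflect few reads was not tested. The SEs of the 30 differences ran from 0.39 to 1.35 with a median of 0.88, and both members, at 0.72 and 0.57, were below that median. The groups did not overlap for 7 of the 30 miRNAs (23.3%), miR-27b* among them and miR-31 not. In 14 of the 30 (46.7%) the value was lower with ethanol on each of the 3 days, again with miR-27b* and without miR-31. As the contrast chose the table, nothing about the members is read from these shares.

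**Figure D2:**
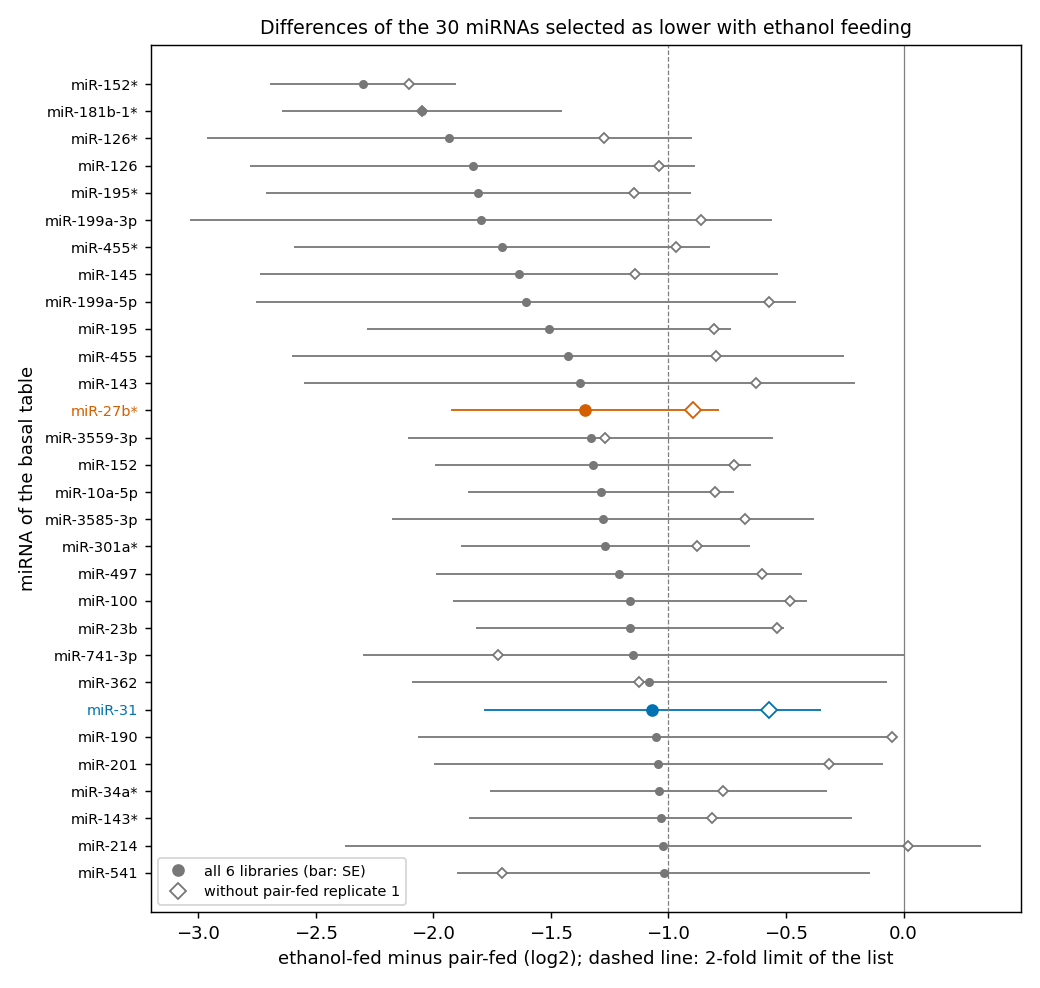
Ethanol-fed minus pair-fed differences (log2) of all 30 miRNAs of the table, with SE bars, from 3 libraries per group (filled circles) and without pair-fed replicate 1 (open diamonds), and a dashed line at the 2-fold limit. miR-27b* (-1.36) and miR-31 (-1.07) lie right of the largest differences, and without pair-fed replicate 1 both move past the limit, to -0.89 and -0.57.

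The size of both differences rested on day 1. Without pair-fed replicate 1 the difference of miR-31 was -0.57 and that of miR-27b* was -0.89, neither of which would have met the 2-fold limit of the list. Without replicate 1 of both groups they were -0.31 and -0.73. Pair-fed replicate 2 had the opposite effect, and without it the differences were -1.69 for miR-31 and -1.80 for miR-27b*, with the groups then apart for both. With any single library or day left out, the difference remained below 0, between -1.71 and -0.31 for miR-31 and between -2.01 and -0.73 for miR-27b*. As both were selected as lower in these same libraries, the kept sign is no independent support for the direction.

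**Figure D3:**
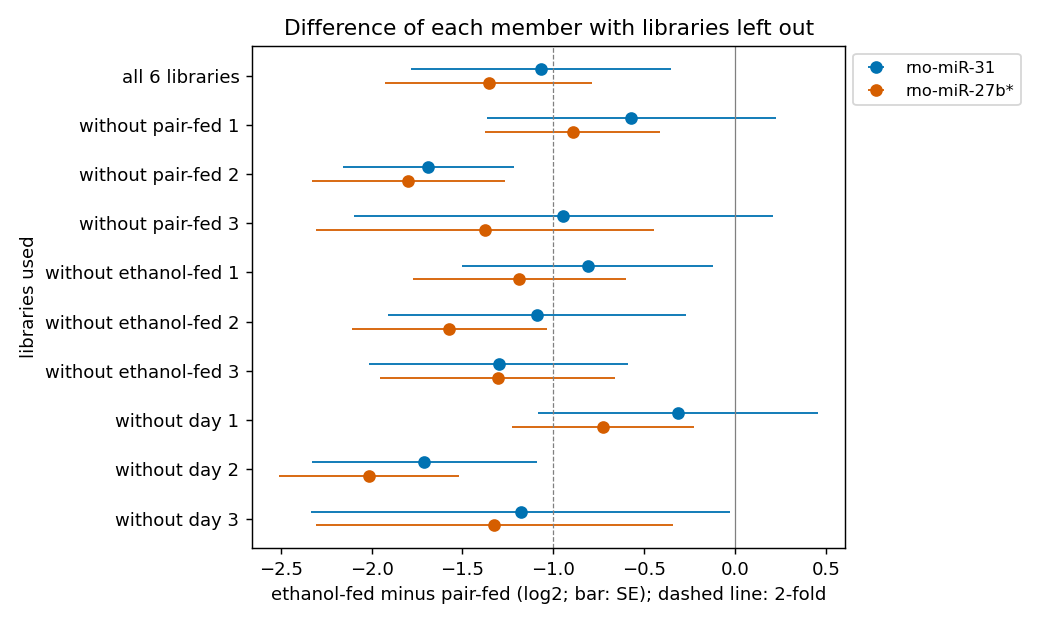
Ethanol-fed minus pair-fed difference (log2, bars SE) of miR-31 and miR-27b* with all 6 libraries, with each library left out and with each day left out, and a dashed line at the 2-fold limit. Points without day 1 lie nearest to 0 (-0.31 and -0.73) and points without day 2 farthest from it (-1.71 and -2.01).

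Replicate 1 stood apart in the table as a whole. Pair-fed replicate 1 was the highest library for 25 of the 30 miRNAs, both members included, and ethanol-fed replicate 1 was the lowest, alone or tied, for 21, again with both. The median of the other 28 miRNAs was 2.00, 0.04 and 0.30 in pair-fed replicates 1, 2 and 3, and -0.87, -0.15 and -0.07 in ethanol-fed replicates 1, 2 and 3. With the median of the others subtracted from each library, miR-31 had values of -0.19, -0.47 and 0.76 in pair-fed and 0.10, -0.06 and 0.28 in ethanol-fed libraries. Its difference was then 0.073 (SE 0.38), of the opposite sign and smaller than its error. miR-27b* had values of -0.17, -0.02 and 0.57 in pair-fed and 0.08, 0.13 and -0.48 in ethanol-fed libraries, with a difference of -0.21 (SE 0.30). Pair-fed replicate 3 was the highest library for both on this scale. The other 28 miRNAs were themselves selected as lower with ethanol, so that this subtraction removes the shared part of the difference by construction, and the values say only that neither member was lower with ethanol by more than the other selected miRNAs beyond its error.

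The miR-23b/miR-27b/miR-24-1 cluster gave a second product beside miR-27b*. miR-23b is known to repress Tab2, Tab3 and Chuk (IKKα), which pass on inflammatory signals, in mouse and human cells. Its mature sequence, shown as the product of the neighbouring hairpin, lies at chr17:1819405-1819425 on the minus strand.
miR-23b: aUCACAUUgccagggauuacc
miR-23b had values of 2.00, 0.03 and 0.23 in pair-fed and -0.66, -0.53 and -0.03 in ethanol-fed replicates 1, 2 and 3. Its groups did not overlap, by a margin of 0.066, and its difference was -1.16 (SE 0.65), the 21st in size. It was lower with ethanol on each day, by differences of -2.66, -0.56 and -0.26, so that day 2 was not the day of least difference as it was for miR-27b*. Of the 8 entries in the list of this cluster and its miR-23a/miR-27a/miR-24-2 paralog, these 2 products were the ones in the table. Of the miR-31 family, 3 entries, miR-31 alone was listed.

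Other miRNAs linked to inflammation and Toll-like receptor signaling were also in the table. Of 40 entries in that list, 6 were present through 7 products, both members included, and the median of their 7 differences was -1.60, beside -1.30 over all 30. The table holds 30 miRNAs, beside 693 mature rat miRNAs in RefSeq. How many of the 40 entries were measured was not determined, so 6 is read neither as few nor as many. Entries were matched by number and letters, with either arm counted. miR-27b*, miR-181b-1* and miR-34a* thus entered as star strands, and the link of an entry need not hold for its star strand. miR-181b-1*, the star strand of a miRNA whose guide strand is known to repress an importin of NF-κB, had a difference of -2.05. The study also cites earlier work on miR181b-3p, which ethanol feeding lowered in Kupffer cells and which was tied to importin α5. That work too started from sequencing and from miRNAs lowered by ethanol. Whether it used these libraries, and whether miR-181b-1* is the same arm, was not examined here. miR-145, known to repress the adaptor Tirap, had -1.63. The arms miR-199a-5p and miR-199a-3p had -1.60 and -1.80, the former known in human cells to repress IKKβ, and miR-34a* had -1.04. Both members thus had smaller differences than the others of this list except miR-34a*. Among the 7 products, 2 had groups that did not overlap and 4 were lower on all 3 days, beside 7 (23.3%) and 14 (46.7%) of all 30, so that neither count sets the list apart. miR-155 and miR-146a, the best known miRNAs of this pathway in macrophages, were not in the table, which holds selected miRNAs and so gives no value for them.

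The members resembled each other across libraries, and each had closer neighbours. Over the 6 basal libraries Pearson's r between miR-31 and miR-27b* was 0.91 and Spearman's rho 0.77, as a description of libraries that both share. With any single library left out r was between 0.773 and 0.977. Without the 2 libraries farthest from the median of miR-31, pair-fed replicates 1 and 3, r was 0.17 over the 4 libraries left, which span a narrower range of miR-31 by that choice. Among the 29 other miRNAs miR-27b* was the 7th most like miR-31, and miR-31 the 8th most like miR-27b*. The miRNAs closest to miR-31 were miR-126* (r = 0.950), miR-195* (0.948) and miR-195 (0.943). Those closest to miR-27b* were miR-10a-5p (0.976), miR-195* (0.970) and miR-126* (0.944). miR-126 is a miRNA of endothelial cells, miR-10a is known to restrain NF-κB signaling in human endothelial cells, and miR-195 belongs to the miR-15/16 family.

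miR-10a-5p placed the 6 libraries in the same order as miR-27b*. Its values were 1.87, 0.14 and 0.68 in pair-fed and -0.86, -0.14 and -0.16 in ethanol-fed libraries. After subtraction of the library medians its r with miR-27b* was 0.870. That was 2nd to miR-181b-1* (r = 0.882), which had been 18th before the subtraction, so that the order of the neighbours changed. For miR-31, by contrast, none of the leading 3 remained among the leading 3 after that subtraction. miR-195* ran further apart, with 2.55, -0.03 and 1.17 in pair-fed and -1.59, 0.03 and -0.19 in ethanol-fed libraries, and miR-126* had 2.59, -0.15 and 1.38 against -1.98, 0.04 and -0.04. These 2 star strands shared with miR-31 the low value of pair-fed replicate 2, which lay below ethanol-fed replicate 2 in each. miR-23b, from the same cluster as miR-27b*, was the 10th most like it (r = 0.896), with r of -0.249 after the subtraction.

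Likeness to much of the table was common. r exceeded 0.8 for 13 of the 29 other miRNAs with miR-31 and for 13 with miR-27b*, with medians of 0.746 and 0.783. After subtraction of the library medians these medians were 0.070 and 0.066, and r between the 2 members was 0.45.

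**Figure D4:**
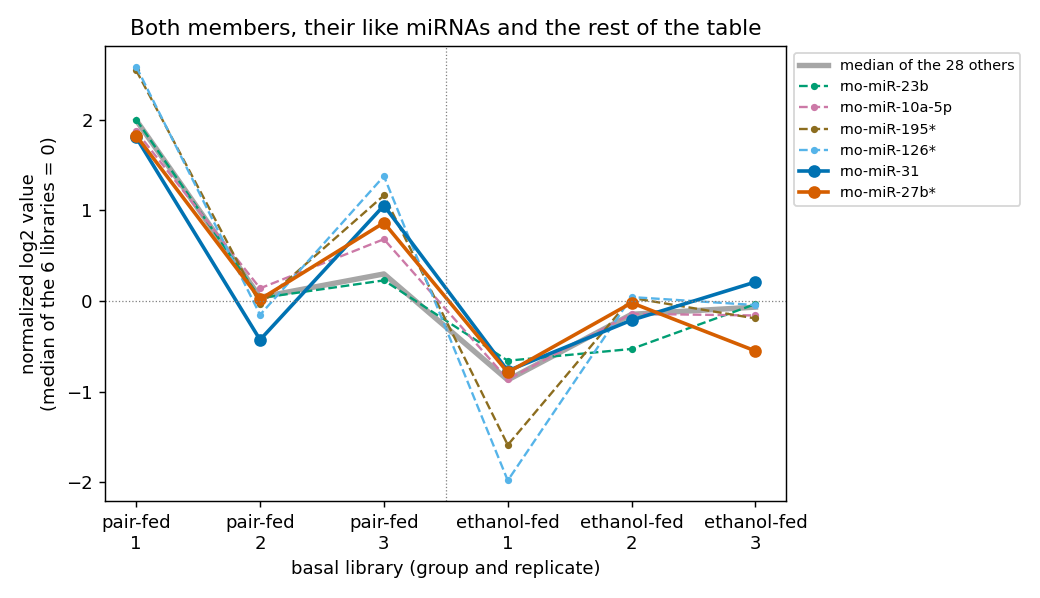
Normalized log2 values (median of each miRNA over the 6 libraries set to 0) in the 6 basal libraries, for miR-31 and miR-27b* (solid), miR-23b, miR-10a-5p, miR-195* and miR-126* (dashed), and the median of the 28 other miRNAs (grey), where lines only join the points of a miRNA. All 6 miRNAs are highest in pair-fed replicate 1 (1.81 to 2.59) and lowest in ethanol-fed replicate 1, and both members lie above the grey line in pair-fed replicate 3 (1.05 and 0.86 against 0.30).

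miRNAs listed for other liver cells varied over the libraries much as the rest of the table did. Of 9 entries in a list of endothelial and hepatic stellate or mesenchymal miRNAs, 7 were in the table through 11 products, and their mean was 2.18, 0.05 and 0.38 in pair-fed and -1.57, -0.29 and -0.21 in ethanol-fed replicates 1, 2 and 3. Both miRNAs followed this mean in having their highest value in pair-fed replicate 1 and their lowest in ethanol-fed replicate 1, and lay above it in pair-fed replicate 3. Its part in the differences of miR-31 and miR-27b* was not tested. The median of the 28 others, these products among them, placed the libraries in the same order. It was 2.00, 0.04 and 0.30 in pair-fed and -0.87, -0.15 and -0.07 in ethanol-fed replicates 1, 2 and 3. Over the 11 products of the list, r ran from 0.49 (miR-214) to 0.95 (miR-126*) with miR-31. With miR-27b* it ran from 0.46 (miR-214) to 0.98 (miR-10a-5p). With the library shift taken only over miRNAs outside that list, the differences were -0.094 for miR-31 and -0.38 for miR-27b*. None of the 20 entries in the lists for leukocytes and macrophages (6 entries), hepatocytes, epithelial and biliary cells, and erythroid cells was in the table, which holds only miRNAs selected as lower, so that the identity of the cultures could not be checked on it. The share of reads too short to align was 24.8%, 11.7% and 25.9% in pair-fed and 22.6%, 8.81% and 7.32% in ethanol-fed replicates 1, 2 and 3. This share was highest in pair-fed replicates 1 and 3, where both members were highest. It came next in ethanol-fed replicate 1, where both were lowest. Its part in these values was not tested.

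Neither miRNA was among the 3 miRNAs in the deposited table of the HA35 comparison in ethanol-fed rats. By its title that table lists miRNAs raised by HA35. Absence from it therefore says nothing about a decrease or a smaller change. Values of miR-31 and miR-27b* in the HA35 libraries were not analysed here.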

How the data were processed

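Small RNA of primary Kupffer cells was sequenced in 12 libraries (TruSeq small RNA), of which the 6 basal ones carry values for both miRNAs. The table used, as deposited, holds log2 values that the authors had normalized and centred on the median of each miRNA, for 30 miRNAs kept at a fold of at least 2. They also deposited their own fold changes and p-values, which were not used, and an alignment report of read numbers and percentages per library. HTSeq, DESeq and rn4 are named in the submitters' processing notes, and the methods add small RNA analysis software (version 2.5.1) on the same build. Neither source says which of these steps normalized the values.

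Groups and days were taken from the sample labels. No pseudocount and no filter were applied. The difference is the ethanol-fed minus the pair-fed mean, and its SE comes from the 3 libraries of each group. Same-numbered libraries were compared within days, since the labels give the number as a day. The SE of the difference with the day as a block was 0.81 for miR-31 and 0.74 for miR-27b*. No test was run, because the contrast had chosen both members and the whole table. Rank correlations and library shifts were alternatives. The miRNAs named are both members, the 3 most like each by Pearson's r over the 6 libraries, and all table entries of lists for the miR-23/27/24 clusters, the miR-31 family, inflammation with Toll-like receptor signaling, and cell type markers. Those singled out beyond this rule are the ends of the table and miR-155 and miR-146a. Members and lists were chosen with earlier results of these data known. List entries were matched by number and letters, with either arm or star strand counted. Sequences and positions were read from RefSeq tables of build GRCr8, and no coordinate of rn4 is given. Seed matches in target transcripts were not analysed here. The calculations were tested on simulated data, with Python 3.11.15, numpy 2.4.6, pandas 2.3.3, scipy 1.17.1 and matplotlib 3.10.9.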

Additional observations from a re-analysis of the deposited data

How the results depend on the processing

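With each library or day left out, the differences ran from -1.71 to -0.31 for miR-31 and from -2.01 to -0.73 for miR-27b*. With single libraries left out, the count of miRNAs with groups apart ran from 8 to 16 of 30, beside 7 with all libraries. Leaving a library out cannot make parted groups overlap, so that this count could not fall below 7. With single libraries left out, r between the members ran from 0.77 to 0.98, and r was 0.17 without pair-fed replicates 1 and 3 together. r was 0.77 without pair-fed replicate 1 and 0.77 as Spearman's rho. Subtracting the median of the other selected miRNAs from each library gave 0.073 for miR-31, a change of sign, and -0.21 for miR-27b*, an r of 0.45, 0 miRNAs with groups apart and 2 lower on every day, beside 14. This follows from the construction, since those miRNAs had been selected as lower. With day 1 also left out the values were -0.036 and -0.45, and with the shift taken over miRNAs outside the marker lists -0.094 and -0.38. These last alternatives, and r with libraries left out, were chosen after seeing the data. Group medians (-1.27 and -1.42) and linear means (-1.28 and -1.50) kept the direction, which the selection in these libraries favours. By medians miR-31 ranked 11th instead of 24th. The day as a block changed only the SE, to 0.81 and 0.74. Without reads per miRNA, what depth limits could not be computed.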
